A study of Homo sapiens with 4 samples.

Results

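The genes described here encode the subunits, activators, inhibitor and assembly factors of the proteasome. They were taken from the deposited table by symbol: PSMA, PSMB, PSMC, PSMD, PSME, PSMF or PSMG followed by a digit, without hyphenated antisense entries and without PSMB8 and PSMB9. The rule found 45 genes of the 20510 in the table. One of them, PSMC3IP, carries the prefix because its product was found bound to PSMC3, but it is a cofactor of meiotic recombination and no proteasome subunit. It is counted with the 45 and kept out of every subunit group.

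RNA was sequenced on the BGISEQ-500 from K1 cells, a human line that the study uses as papillary thyroid carcinoma. One group carried a control short hairpin RNA (shCtrl, 2 libraries) and the other a hairpin against TBX3 (shTBX3, 2 libraries), a T-box transcription factor, as the title and labels give them. The study asked about TBX3, the Polycomb complex PRC2 and the cell cycle inhibitor p57KIP2. All 4 libraries come from 1 cell line and each group has 1 labelled hairpin, so a clone or a single hairpin cannot be told apart from the knockdown. The labels do not tell whether replicates came from separate cultures. The p-values therefore rest on the spread of these libraries alone, which may be technical.

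Values are FPKM, in which fragment numbers are divided by the length of the transcript and the mapped total, so levels of different genes can be set beside each other. The steps of short genes corresponded to between 8520000 and 8560000 fragments a library. TBX3 itself stood at 48.94 and 54.77 in shCtrl against 27.81 and 36.99 in shTBX3, 0.625 of the control mean, with a limma adjusted p of 0.428. Of the thyroid markers, TG, TSHR, NKX2-1 and FOXE1 did not exceed 0.31, PAX8 reached 1.88 and SLC5A5 3.28. Of 7 colon epithelial markers, CDX2 was at 116.78 or above in every library, CDH17, KRT20 and VIL1 lay between 8.86 and 45.08, and FABP1, GPA33 and MUC2 were at 0.58 or below. The part of this marker profile in the proteasome results was not tested.

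The proteasome is the protease complex that degrades ubiquitin-tagged proteins in the cytosol and nucleus. Its barrel-shaped core particle is built of outer rings of alpha subunits (PSMA genes), which gate the entry, and inner rings of beta subunits (PSMB genes), of which PSMB5, PSMB6 and PSMB7 carry the proteolytic sites. The 19S regulatory particle caps the barrel: its ATPases (PSMC genes) unfold the substrate, and its non-ATPase subunits (PSMD genes) bind and remove ubiquitin. Interferon replaces the proteolytic subunits with PSMB8, PSMB9 and PSMB10 and raises the 11S activator subunits PSME1 and PSME2, which alters the peptides made for MHC class I presentation.

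Short sequence windows carry 2 of the patterns below and are given first. The first is a site in the 3′ untranslated region of PSMA6, the member with the lowest level in shTBX3 relative to shCtrl. Its heptamers TGTCGTT and GTCGTTA were singled out in an earlier analysis that scored heptamers on these same data, so they are no independent evidence here. The windows are 30 bases of GRCh37, 5′ to 3′ on the gene's strand, with the heptamers in capitals.
PSMA6 (chr14:35786510-35786539, plus strand): taaacatTGTCGTTAgtttaccagatccgt
TBX3 (chr12:115108807-115108836, minus strand): agcaggattcaTGTCGTTctttgacagttc
In PSMA6 both heptamers overlap, the region with its stop codon is 190 bases long, and the match starts at base 8 counted from the first base of the stop codon. Of the 44 members with a canonical 3′ untranslated region of at least 50 bases, PSMA6 was the 1 that held either heptamer (2.27%), and among 11113 coding genes tested 3.36% held either. The hairpin sequences were not used here, and the part of these sites in the PSMA6 level was not tested.

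The second set shows a letter pattern of interferon response elements, GAAA followed by any 2 bases and GAAA again, searched on both strands of the RefSeq promoter windows of GRCh38.p14, which run from 250 bases before to 50 after an annotated start. It was chosen after the levels of PSMB10, PSME1 and PSME2 had been seen. Of the 39 members with a promoter in that table, 6 held it (15.4%), against 4.4% of all genes with a promoter there. PSMB8 is shown beside them as the inducible counterpart of PSMB5. Each line gives 30 bases on the strand that reads as GAAA, with the pattern in capitals and the position of an exact match in GRCh37.
PSMB10 (chr16:67970755-67970784, minus strand): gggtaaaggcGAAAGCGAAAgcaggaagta
PSME1 (chr14:24605398-24605427, minus strand): accgcgaaggGAAAGCGAAAgcggtagggc
PSME2 (chr14:24615828-24615857, minus strand): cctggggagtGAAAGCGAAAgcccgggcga
PSMB8 (chr6:32811809-32811838, plus strand): aggaggaagtGAAAGCGAAAgccacagatc
PSMG4 (chr6:3259138-3259167, plus strand): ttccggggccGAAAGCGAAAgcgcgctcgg
PSMA4 (chr15:78832497-78832526, plus strand): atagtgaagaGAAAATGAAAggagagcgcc
PSMB4 (chr1:151371971-151372000, plus strand): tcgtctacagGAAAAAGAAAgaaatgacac
The match was the same 10 letters in PSMB10, PSME1, PSME2, PSMB8 and PSMG4, and differed in PSMA4 and PSMB4. No 19S subunit among the members held it (0 of 16 with a promoter), where 4.4% of all genes with a promoter did. Few matches would thus be looked for among 16. PSMA7, PSMB1, PSMB6, PSMB7, PSMD4 and PSMG3 had no promoter there and could not be read. PSMB9, the inducible counterpart of PSMB6 that the symbol rule also leaves out, did not hold it in its promoter window. A match is a description of letters and not of a bound site.

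All 45 members were expressed in all 4 libraries, from an FPKM of 10.87 for PSMG4 to 285.50 for PSMB4, and all passed the filter for testing (2 or more libraries at an FPKM of 1 or above). The values rested on an estimated 69 fragments or more, so the standard error from counting alone was at most 12.0% on a single value. This leaves out uncertain assignment of fragments between similar copies of a gene. No member passed the threshold of 0.05 on limma's adjusted p, taken over the 13924 genes tested, of which 0.180% passed (0.0718% higher and 0.108% lower in shTBX3). At an unadjusted p under 0.05 limma gave 2 of 45 members, PSMA6 and PSMB10, where 6.67% of all genes tested had such a p (4.65% with the lower level in shTBX3, as both members had). Both shTBX3 values lay above both shCtrl values in 7 members and below them in 7, that is 15.6% each way, where all genes tested gave 14.8% above and 19.7% below, 34.6% in all. These shares are near the background, so as a count the members did not stand apart.

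**Figure D1:**
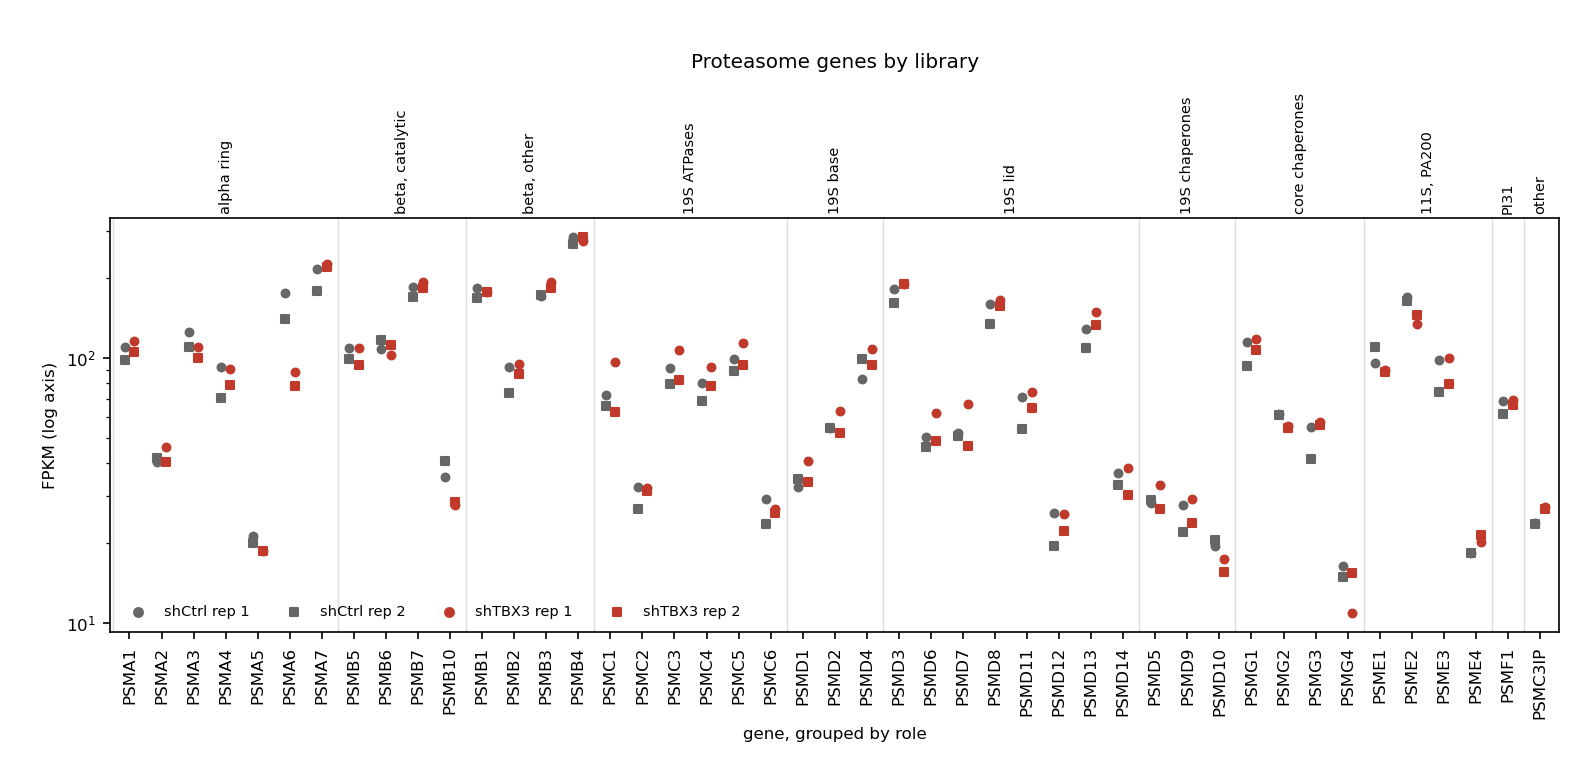
FPKM (log axis) of the 45 members by library (shCtrl grey, shTBX3 red, 2 each), grouped by role; circles are replicate 1 and squares replicate 2. Values run from 10.87 for PSMG4 to 285.50 for PSMB4, and PSMA6 shows the widest gap between the groups.

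PSMA6, an alpha subunit of the core ring, showed the largest difference among the members. The FPKM of PSMA6 was 175.18 and 140.52 with the control hairpin against 88.49 and 78.02 with the TBX3 hairpin. Both shTBX3 values lay far below both shCtrl values, and the groups did not overlap. Averaged over both libraries, shCtrl stood at 158 ± 24.5 and shTBX3 at 83.3 ± 7.40 (SD, n = 2), a 1.90-fold lower level. The fitted log2 fold change was −0.91 ± 0.15 (SE). The limma p of PSMA6 was 0.000961 before adjustment, at rank 78 of all genes, and 0.171 after Benjamini-Hochberg adjustment, so the call was missed. With 1 library left out the difference ran from −1.07 (without shCtrl replicate 2, limma adjusted p = 0.0767) to −0.75 (without shCtrl replicate 1, limma adjusted p = 0.234).

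PSMA6 lies on chromosome 14, 35747839 to 35786699, plus strand, in GENCODE on GRCh37. GENCODE lists 4 pseudogenes of PSMA6, so the assignment of some fragments is uncertain. KIAA0391 (PRORP), which encodes the nuclease of mitochondrial RNase P, is the next gene upstream on the same strand. It stood at 14.03 and 17.85 in shCtrl against 15.44 and 13.81 in shTBX3, with overlapping groups.

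The other alpha subunits stayed closer to their control level. PSMA7 was the highest of the ring, at 215.70 and 179.45 in shCtrl against 226.96 and 220.52 in shTBX3, with a log2 fold change of 0.18 ± 0.13 (SE). PSMA5 was the lowest, at 21.26 and 19.93 against 18.67 and 18.68. Both genes had groups that did not overlap, in opposite directions, with limma adjusted p of 0.916 and 0.931. PSMA1, PSMA2, PSMA3 and PSMA4 overlapped between the groups, with log2 fold changes between −0.16 for PSMA3 and 0.08 for PSMA1. In the control libraries PSMA6 ranked 2 of the 7 alpha genes, and in the shTBX3 libraries it ranked 5. Set against the mean FPKM of the other 6 alpha genes, PSMA6 stood at 1.74 and 1.62 in shCtrl against 0.873 and 0.831 in shTBX3. Though each ring of the particle holds its subunits in equal number, their transcripts were unequal: the highest alpha gene exceeded the lowest 10.1-fold in shCtrl replicate 1 and 12.2-fold in shTBX3 replicate 1.

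Among the beta subunits, the constitutive catalytic genes showed small differences. PSMB5, which carries the chymotrypsin-like site, was at 109.01 and 98.65 in shCtrl against 109.06 and 93.87 in shTBX3. PSMB6, the caspase-like subunit, was at 107.96 and 116.55 against 102.18 and 111.86. PSMB7, the trypsin-like subunit, was at 185.87 and 169.62 against 193.35 and 184.00. All 3 overlapped between the groups. Their log2 fold changes were −0.04 ± 0.13, −0.07 ± 0.12 and 0.09 ± 0.12 (SE), with limma adjusted p between 0.965 and 0.991, and the sign of PSMB5 changed when shCtrl replicate 1 was left out (0.04) or shTBX3 replicate 2 (0.07), and under upper quartile scaling (0.0080).

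PSMB10, the inducible counterpart of PSMB7, differed more. Its FPKM was 35.34 and 40.60 in shCtrl against 27.78 and 28.58 in shTBX3. The shTBX3 values were close together and both below the control pair, 0.742 of the control mean. The log2 fold change was −0.41 ± 0.13 (SE), with a limma p of 0.0196 and an adjusted p of 0.581. PSMB10 stood at 0.190 and 0.239 of PSMB7 in shCtrl and at 0.144 and 0.155 in shTBX3, so the inducible form was the minor transcript of that pair in every library.

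The 2 inducible subunits left out by the rule had the same order. PSMB8 was at 66.42 and 62.99 in shCtrl against 43.11 and 44.71 in shTBX3 (limma adjusted p = 0.299), and PSMB9 at 22.65 and 28.07 against 11.17 and 19.85 (limma adjusted p = 0.684). PSMB8 stood at 0.609 and 0.639 of PSMB5 in shCtrl and at 0.395 and 0.476 in shTBX3, and PSMB9 at 0.210 and 0.241 of PSMB6 against 0.109 and 0.177. In all 3 pairs both shTBX3 ratios lay below both shCtrl ratios. PSMB5, PSMB6 and PSMB7 had log2 fold changes between −0.07 and 0.09, so the ratios largely repeat the order of the inducible genes. Of all genes tested, 19.7% had both shTBX3 values below both shCtrl values. PSMB8 overlaps its antisense transcript PSMB8-AS1, which stood at 20.07 and 19.52 in shCtrl against 12.72 and 14.45 in shTBX3, and since no source used here gives the strandedness of the libraries, reads of the 2 cannot be told apart.

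The non-catalytic beta subunits had log2 fold changes between 0.02 and 0.14. PSMB4, with the highest level of all members, was at 285.26 and 268.10 in shCtrl against 275.58 and 285.50 in shTBX3. PSMB1 was at 182.76 and 167.95 against 178.02 and 176.99. PSMB2 was at 92.25 and 73.52 against 95.16 and 87.11, with a log2 fold change of 0.14 ± 0.15 (SE). PSMB3 was at 171.63 and 173.07 against 194.05 and 182.97, both shTBX3 values above both controls, a log2 fold change of 0.13 (limma adjusted p = 0.931).

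**Figure D2:**
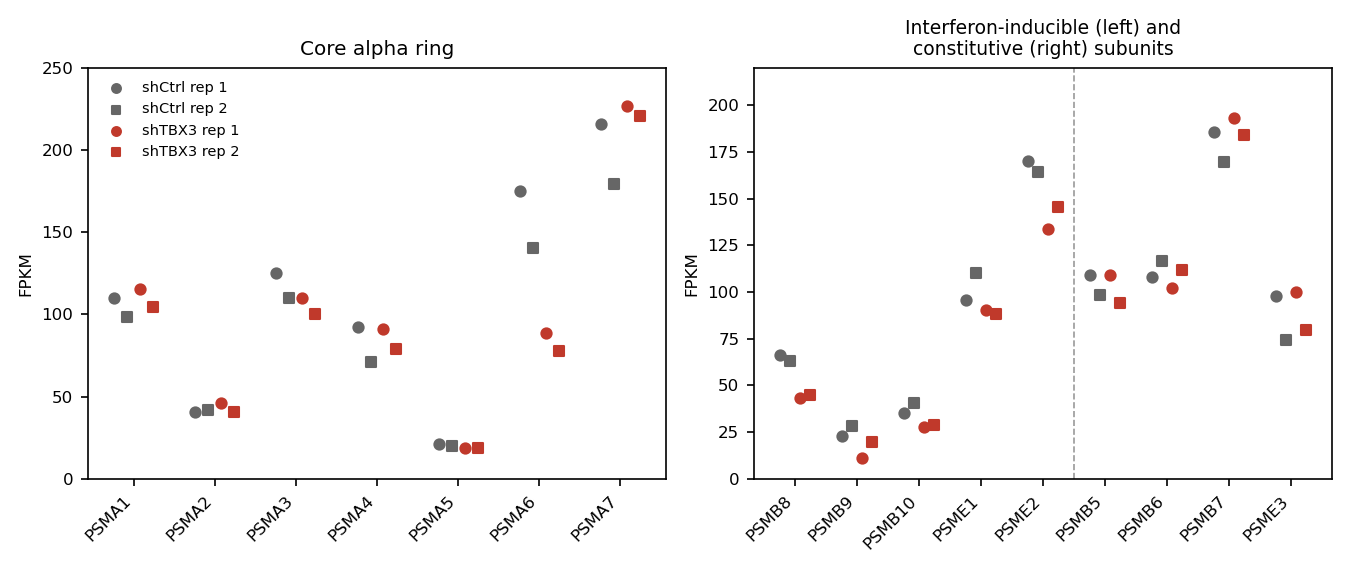
FPKM (linear axes) of the 7 alpha subunit genes (left) and of interferon-inducible proteasome genes beside constitutive ones (right, split by the dashed line) by library (shCtrl grey, shTBX3 red, 2 each). PSMA6 is at 140.52 or above in shCtrl and at 88.49 or below in shTBX3. The 5 inducible genes have both shTBX3 values below both shCtrl values, as had 19.7% of all genes tested. None of the 5 had a limma adjusted p under 0.05 (0.299 to 0.882).

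No activator of the core passed the test. PSME1 and PSME2, which form the interferon-inducible 11S ring, had both shTBX3 values below both controls: PSME1 was at 95.70 and 110.13 in shCtrl against 90.12 and 88.22 in shTBX3. PSME2 was at 170.04 and 164.07 against 133.92 and 145.69. Neither pair overlapped, with log2 fold changes of −0.20 ± 0.13 and −0.26 ± 0.12 (SE), and limma adjusted p of 0.882 and 0.805. The sum of both was 265.74 and 274.20 in shCtrl against 224.04 and 233.91 in shTBX3. For PSME2 GENCODE lists 6 pseudogenes, so the assignment of some of its fragments is uncertain. PSME3, the nuclear 11S form that interferon does not induce, overlapped, at 98.01 and 74.26 against 100.27 and 79.55. PSME4, the PA200 activator, was at 18.27 and 18.24 in shCtrl against 20.17 and 21.50 in shTBX3, higher in both (log2 fold change 0.18 ± 0.13, limma adjusted p = 0.909). PSMF1, the PI31 regulator of core activity, was at 68.41 and 61.59 against 69.08 and 66.32.

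PSMB10, PSME1 and PSME2 are 3 of the 7 members whose shTBX3 values both lay below the controls, and all 3 carry the letters GAAAGCGAAA shown above. PSMG4, with the same letters, was at 16.41 and 14.84 in shCtrl against 10.87 and 15.37 in shTBX3, so 1 shTBX3 library was low and the groups overlapped. PSMA4 and PSMB4, with other letters in the pattern, overlapped as well. The remaining members of the 7 were PSMA6, PSMA5, PSMD10 and PSMG2, which did not hold the pattern in their promoter windows. No test was attached to this overlap, since the pattern was chosen after the values were seen.

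Of the 17 genes of the 19S particle that matched the symbol rule, 16 had a positive log2 fold change, against 46.9% of all genes tested. Without shTBX3 replicate 1 this held for 9 of 17. SHFM1 and ADRM1, proteasome-bound proteins outside the rule, are not among the 17 and had log2 fold changes of −0.05 and 0.07. None of the 17 genes had a limma p under 0.05 even before adjustment. Their median log2 fold change was 0.14, and 0.0033 without that library, where the median of all genes tested was −0.01. PSMD3 and PSMD13 had both shTBX3 values above both controls, 2 of 17 (11.8%) beside 14.8% of all genes tested, and the other 15 genes overlapped.

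All 6 ATPases had a positive value. PSMC4 had the largest, at 80.10 and 68.40 in shCtrl against 92.56 and 78.31 in shTBX3, a log2 fold change of 0.20 ± 0.15 (SE) (limma adjusted p = 0.918). PSMC6 had the smallest, at 29.18 and 23.62 against 26.88 and 25.84, a log2 fold change of 0.01 ± 0.15. The sign of PSMC6 changed when values were rescaled to equal totals (−0.014). It also changed without shCtrl replicate 2 (−0.14) and without shTBX3 replicate 1 (−0.022). In PSMC1 the shTBX3 libraries differed from each other more than from the controls, at 96.59 and 62.16 beside 72.11 and 65.88, and GENCODE lists 13 pseudogenes of it, the most of any member. All 6 overlapped between the groups.

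In the base, PSMD1 and PSMD2 are the scaffold subunits and PSMD4 is a ubiquitin receptor. PSMD4 was at 82.86 and 99.28 in shCtrl against 108.41 and 94.04 in shTBX3, with a log2 fold change of 0.15 ± 0.15 (SE). PSMD2 was at 54.21 and 54.20 against 62.73 and 51.96, so the control libraries were equal while those of shTBX3 lay on both sides of them. PSMD1 was at 32.58 and 34.94 against 40.93 and 33.82.

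In the lid, PSMD13 had the largest difference, at 128.01 and 108.57 in shCtrl against 149.41 and 133.45 in shTBX3. The shTBX3 values were both above the controls, a log2 fold change of 0.26 ± 0.14 (SE) (limma adjusted p = 0.851). PSMD3 was at 182.28 and 161.61 against 190.18 and 190.37. PSMD14, the deubiquitinase that strips ubiquitin from the substrate, was the 1 gene of the 17 with a negative value. It stood at 36.74 and 32.98 in shCtrl against 38.47 and 30.35 in shTBX3 (log2 fold change −0.03 ± 0.16). Its sign changed under quantile normalization (0.0065) and upper quartile scaling (0.017). PSMD6, PSMD7, PSMD8, PSMD11 and PSMD12 had log2 fold changes between 0.09 and 0.19, all with overlapping groups.

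**Figure D3:**
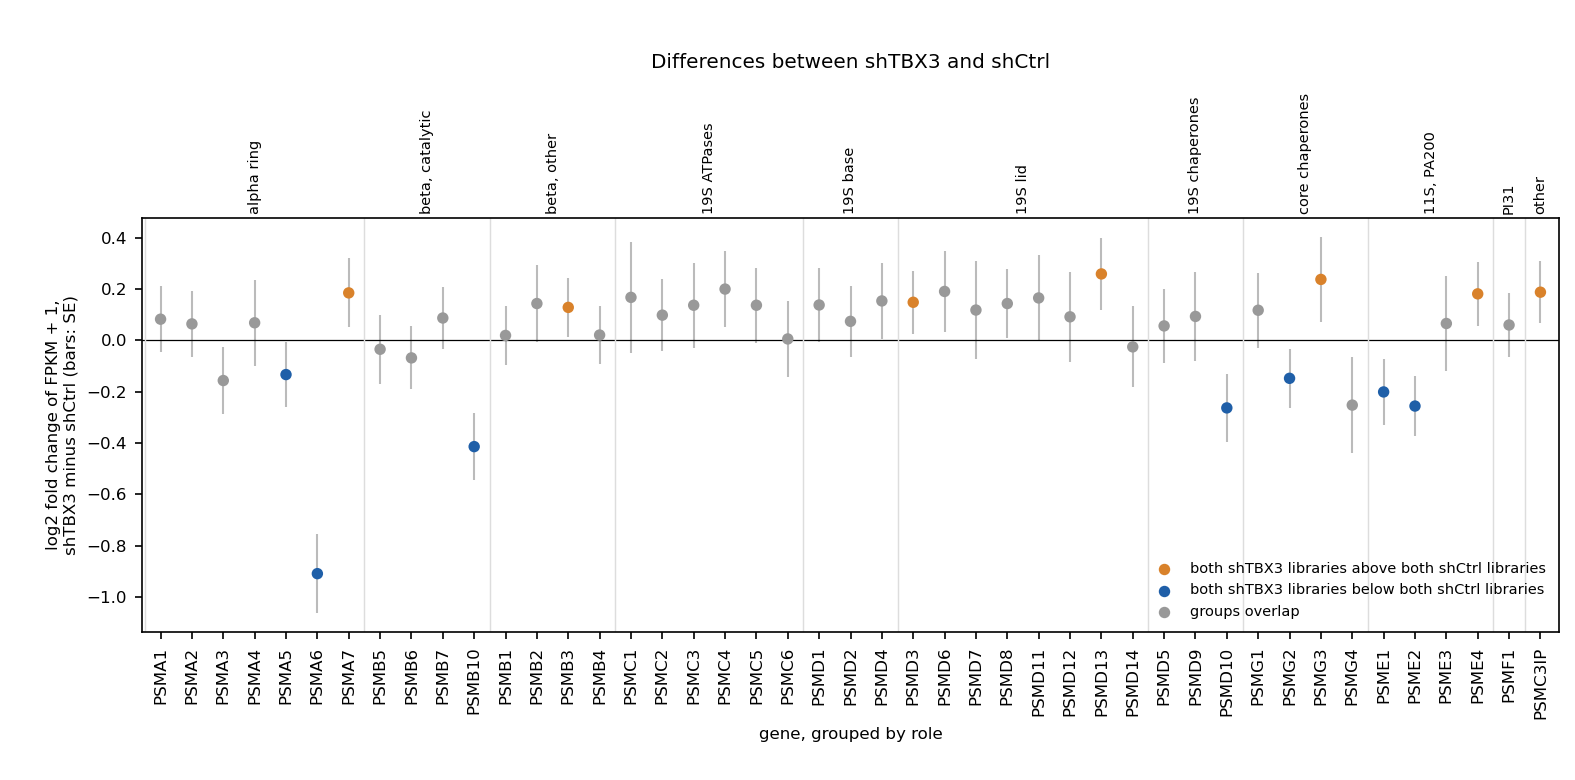
Log2 fold change of FPKM + 1, shTBX3 minus shCtrl, with its standard error, for the 45 members by role; orange and blue points have both shTBX3 libraries above or below both shCtrl libraries, and grey points overlap. PSMA6 lies at −0.91 and PSMB10 at −0.41, while 16 of the 17 genes of the 19S particle lie above 0 (9 of 17 without shTBX3 replicate 1).

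Set side by side, the core and the 19S particle differed in level in every library and slightly in their balance. The 15 core genes include the inducible PSMB10, while PSMB8 and PSMB9 lie outside the symbol rule. The mean FPKM of these 15 genes was 130 and 118 for shCtrl against 125 and 119 for shTBX3. That of the 17 genes of the 19S particle was 75.3 and 67.5 in shCtrl against 85.5 and 73.3 in shTBX3. The core groups overlapped, and so did those of the 19S particle, where shTBX3 replicate 1 stood highest. The ratio of core to 19S was 1.73 and 1.75 in shCtrl against 1.46 and 1.63 in shTBX3, with means of 1.74 ± 0.0137 and 1.54 ± 0.121 (SD, n = 2 each). Without PSMA6 the ratio was 1.68 and 1.72 against 1.49 and 1.67. Both shTBX3 values lay below the controls, but shTBX3 replicate 2 (1.67) was close to shCtrl replicate 1 (1.68), so the difference rested mainly on shTBX3 replicate 1. An exact two-sided permutation test of 2 libraries against 2 cannot go below p = 0.333. Both ratios gave that p because their groups did not overlap, so the test adds nothing to the order of the values.

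The 2 particles also differed in their median log2 fold change, 0.02 for the core and 0.14 for the 19S particle. This difference rested on shTBX3 replicate 1: without that library the medians were −0.0040 and 0.0033, and 9 of the 17 genes of the 19S particle had a positive value. Without shTBX3 replicate 2 they were 0.07 and 0.26, with 17 of 17 positive. Without shCtrl replicate 1 the 19S median was 0.23, and without shCtrl replicate 2 it was 0.06, with 12 of 17 positive. The members moved together between libraries of a group: replicate 1 stood above replicate 2 in 36 of 45 members in shCtrl and in 37 of 45 in shTBX3, against 6807 and 6961 of the 13924 genes tested. Among the 17 genes of the 19S particle these counts were 15 and 16. The part of this spread in the 19S values was not tested.

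**Figure D4:**
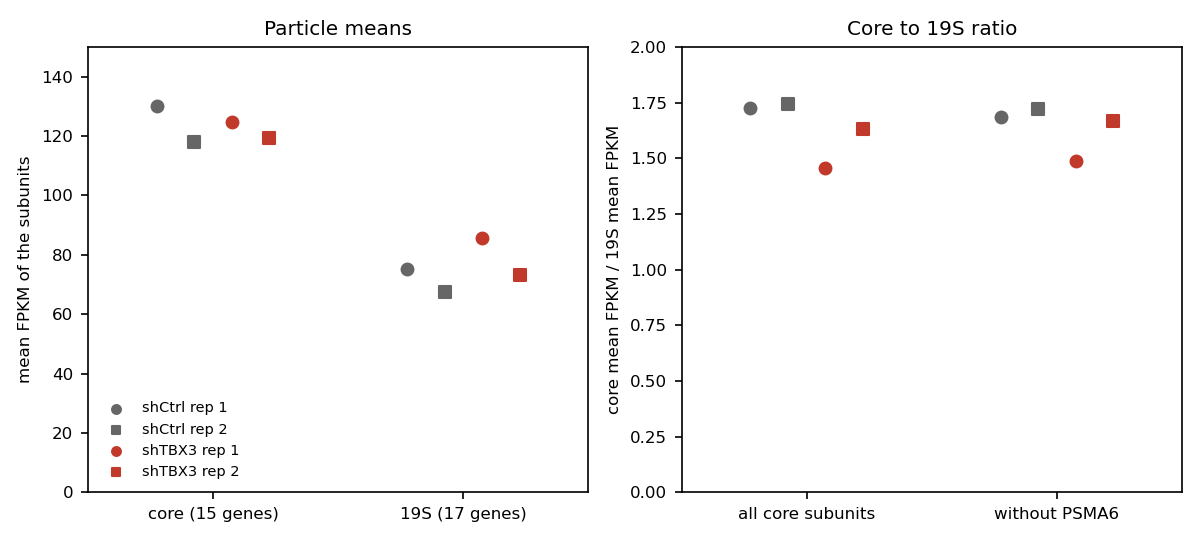
Mean FPKM of the core and 19S genes (left) and the ratio of both with and without PSMA6 (right) in each library, shCtrl in grey and shTBX3 in red, on axes that start at 0. The ratio is 1.73 and 1.75 in shCtrl against 1.46 and 1.63 in shTBX3.

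Assembly factors showed no common direction. PSMG1 and PSMG2, which pair up to guide the alpha ring, were at 114.96 and 93.24 against 117.56 and 107.39, and at 61.23 and 60.92 against 55.50 and 54.53. PSMG2 was thus lower in both shTBX3 libraries, by 0.15 on the log2 scale, while PSMG1 overlapped. Of the other pair, PSMG3 was at 55.01 and 41.31 in shCtrl against 57.20 and 55.55 in shTBX3 (log2 fold change 0.24 ± 0.16, limma adjusted p = 0.909), and PSMG4 is given above (−0.25 ± 0.19, limma adjusted p = 0.918). With 1 library left out, PSMG3 ran from 0.035 to 0.44 and PSMG4 from −0.48 to −0.021. Of the chaperones of the 19S base, PSMD10, also known as the oncoprotein gankyrin, was at 19.45 and 20.43 in shCtrl against 17.40 and 15.53 in shTBX3, below the controls in both (log2 fold change −0.26 ± 0.13, limma adjusted p = 0.831). PSMD9 was at 27.87 and 22.00 against 29.39 and 23.85, and PSMD5 at 28.38 and 29.07 against 33.13 and 26.97. PSMC3IP was at 23.87 and 23.62 in shCtrl against 27.42 and 26.93 in shTBX3, with little spread within a group and a limma adjusted p of 0.893.

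Genes that work with the proteasome but lie outside the symbol rule were read from a set list of 33, of which limma called 0 at an adjusted p under 0.05 and 0 at an unadjusted p under 0.05, where 6.67% of all genes tested had such a p. Of these, 7 had both shTBX3 values above the controls (21.2%) and 3 below (9.09%), beside 14.8% and 19.7% of all genes tested, and their median log2 fold change was 0.06. POMP, the maturation factor that closes the core, was at 80.43 and 59.62 in shCtrl against 75.80 and 66.06 in shTBX3. NFE2L1, the transcription factor that raises proteasome genes when the proteasome is inhibited, was at 44.45 and 54.52 against 45.52 and 50.10. Both overlapped between the groups.

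Among the higher genes were UBA6, KIAA0368, FBXO7, UBQLN4, DDI2 and NGLY1. NGLY1 and DDI2 process the NFE2L1 protein. NGLY1 was at 13.52 and 14.23 in shCtrl against 16.32 and 15.12 in shTBX3, and DDI2 at 4.38 and 4.57 against 4.99 and 4.68. UBQLN4, a shuttle for ubiquitinated proteins, was at 42.07 and 38.34 against 44.51 and 45.74, KIAA0368, a proteasome scaffold, at 14.37 and 15.57 against 18.88 and 15.95. FBXO7, which binds PI31, was at 66.48 and 65.89 against 67.57 and 69.08, and UBA6, a ubiquitin-activating enzyme, at 8.95 and 8.62 against 9.45 and 9.25. The 3 lower were PAAF1, a chaperone of the 19S base (12.56 and 14.52 against 10.66 and 12.19), TXNL1, a thioredoxin bound to the 19S particle (94.67 and 86.19 against 85.48 and 80.48), and ZFAND5, a proteasome activator (28.45 and 29.85 against 25.12 and 28.36). The smallest limma adjusted p among the genes named here was 0.896, for PAAF1.

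Promoter windows of the members were also read for the CCAAT box and for TGACNNNGC, the letters of antioxidant response elements that NFE2L1 binds, both likewise chosen after the values were seen. On either strand, 19 of 39 members held CCAAT (48.7%, against 39.7% of all genes with a promoter in the table) and 14 held TGACNNNGC (35.9%, against 16.1%). By particle, CCAAT stood in 7 of 11 core and 8 of 16 genes of the 19S particle. TGACNNNGC stood in 2 of 11 core genes (18.2%) and 5 of 16 of the 19S particle (31.2%), beside 16.1% of all genes. The core share was thus near that of all genes. The remaining members with TGACNNNGC, outside both particles, were PSMD5, PSMD9, PSME1, PSME2, PSME4, PSMG1 and PSMG2. The promoter windows of PSMA6 held neither CCAAT nor TGACNNNGC.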

How the data were processed

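The authors' deposited table gives FPKM for 4 libraries and 20510 genes. HISAT, Bowtie2, RSEM and hg19 are named per the submitters' processing notes, without versions or roles. No source used here gives the annotation release, filters or strandedness. FPKM scale by transcript length and library total, so abundant genes shift all others, and near-identical copies share fragments.

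Limma 3.58.1 (R 4.3.3) was run on log2(FPKM + 1) of the 13924 genes that reached an FPKM of 1 in 2 or more libraries (eBayes with an intensity trend, two-sided, Benjamini-Hochberg over all genes, threshold 0.05). Fold changes on this scale understate low genes. Tested on simulated data with 2 libraries a group, the fit called 33.4% of 2-fold and 90.8% of 4-fold changes. A 2-fold change can thus go uncalled. Of the calls on simulated data, 6.71% fell on genes given no change. Fragment totals came from whole steps of microRNA genes (between 83.0% and 86.4% of values whole within 0.05 fragments, where evenly spread values give 10.0%). Promoters are RefSeq's (GRCh38.p14), and gene positions and 3′ untranslated regions GENCODE release 44 on GRCh37.

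The members and lists were chosen with earlier results of these data known. Named members (21) were the catalytic subunits and those with the 6 smallest p. Added to them were the highest and lowest log2 fold change of each list of 3 or more. Alternatives covered pseudocounts, filters, scalings, limma settings, the replicate block and each library left out. Values of some listed genes are not reported here.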

Additional observations from a re-analysis of the deposited data

How the results depend on the processing

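Limma called 25 genes as reported, 7 with a pseudocount of 0.1, 0 without the filter on low values (1249 genes had an unadjusted p under 0.05) and between 12 and 55 with 1 library left out. It called 0 members in all fits but one, and 0 of the 33 pathway genes in every fit. Labels do not say that replicate numbers pair the libraries. The deviations of same-numbered libraries correlated across genes at 0.26, and with the replicate block limma called 132 genes and 1 member, PSMA6 (−0.91, adjusted p = 0.0304). The log2 fold change of PSMA6 kept its sign in every fit, with an adjusted p up to 0.516.

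Groups of members did not overlap in 14 genes as reported and in 23 to 38 with 1 library left out (51.1% to 84.4%), where 1 library stands against 2 and between 61.6% and 71.5% of all genes did not overlap. The core to 19S ratio in shCtrl was 1.74 and, without PSMA6, an alternative added after seeing the data like the fit on coding genes alone, 1.70. Of 315 alternative values of named members, 16 changed sign. Those outside the left-out libraries were PSMB5 (0.0080) and PSMD14 (0.017) under upper quartile scaling, PSMD14 (0.0065) under quantile normalization, and PSMB1 (−0.00046) and PSMC6 (−0.014) rescaled to equal totals. With 1 library left out, the ranges were −0.14 to 0.072 for PSMB5, −0.042 to 0.079 for PSMB1, −0.019 to 0.30 for PSMB2, −0.14 to 0.15 for PSMC6, −0.060 to 0.21 for PSMD2, −0.071 to 0.26 for PSMD9 and −0.19 to 0.14 for PSMD14. The cause was not tested. In all, 16 of the 21 named members moved by over 1.5 times or changed sign with 1 library left out. PSMA6, PSMB10, PSMD10, PSME2 and PSME4 did not. With 2 libraries a group, differences of the size seen in most members could not be told from replicate spread.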
